A study of Arabidopsis thaliana with 9 samples.

Results

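The comparison described here set whole Arabidopsis thaliana seedlings of the glk12 genotype, a double mutant in the GOLDEN2-LIKE genes GLK1 and GLK2, against the wild type. It used 6 of the 9 RNA-sequencing samples of the study, 3 labelled glk12 and 3 labelled wild type, and the other 3 overexpressed RPGE2 (RPGE2-OX). All groups were of the Col-0 ecotype, were kept cold at 4 °C for 3 days and then had 7 days of unbroken white light (50 µmol/m2/s, 22 °C). The labels name no alleles for glk12 and no construct or number of independent lines for RPGE2-OX, and they do not say whether replicates were separate sowings. The genes were all those that the authors listed: their deposited table gave 37328 genes a log2 ratio of glk12 over the wild type and a q value, which is a p-value adjusted for the number of genes. Of these, 21843 (58.5%) had a q below 1 and were taken as tested.

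GLK1 and GLK2 are transcription factors of the GARP family that act largely interchangeably in leaves. They bind promoters of nuclear genes for chlorophyll synthesis and for the light-harvesting complexes, and plants without both are pale and have small chloroplasts with few thylakoids. Plastid state is also known to feed back on nuclear transcription, and chloroplasts house early steps of amino acid, sulfur and hormone metabolism as well as steps of defence.

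The deposited table held 1 ratio per gene and no value for any single sample, so the spread between replicates could not be shown and enters only through q. The levels and read counts behind the ratios were not in it, and the depth of the libraries is unknown here. Seedlings were sampled whole, so fewer cells of a type and less RNA per cell cannot be told apart in any of the ratios. GLK1 itself (listed as GPRI1, AT2G20570) had a deposited log2 ratio of -2.64 and GLK2 (AT5G44190) one of -1.41, both at q = 0.00191, so transcripts of both remained measurable in the samples labelled glk12.

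At a q below 0.05, 575 genes were higher in glk12 (2.63% of tested genes) and 663 were lower (3.04%), which is 5.67% of tested genes in all. Most called changes were modest. In the deposited table the median called rise was 1.93-fold and the median called fall 1.91-fold, and the smallest call was 1.43-fold. Changes of at least 2-fold numbered 270 higher (1.24%) and 293 lower (1.34%). Rises and falls differed in their tails: 81 genes with a finite ratio rose at least 4-fold and 33 at least 8-fold, against 44 and 12 that fell by as much. The 13 tested reference genes held no call, with deposited ratios from -0.27 to 0.44, and 1 of them had an unadjusted p below 0.05. Genes for antennae, photosystem subunits, chlorophyll synthesis and the Calvin-Benson cycle made up 93 tested genes, of which 55 fell and 0 rose. The other 608 genes that fell, 91.7% of the falls, and all rises lay outside these photosynthesis lists, and they are the subject of what follows. These lists are narrow, and genes of the NDH complex, cyclic electron flow and photosystem assembly were counted outside them.

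The largest falls outside photosynthesis included a B-box factor, a metabolic enzyme and several transcripts of unknown function. AT1G13650, a hypothetical protein, was 110-fold lower in the deposited table (log2 ratio -6.78, q = 0.00191). AT3G55240, annotated as a plant protein of unknown function, was 88.2-fold lower (-6.46 in the deposited table). BBX16, a zinc finger protein of the CONSTANS-like group, was 33.5-fold lower in the deposited table (-5.07). PGL5, annotated as a 6-phosphogluconolactonase, an enzyme of the oxidative pentose phosphate pathway, was 22.4-fold lower there (-4.49). AT3G05945, a long noncoding RNA, was 49.1-fold lower in the deposited table (-5.62). AT3G16120, annotated as a dynein light chain protein, was 10.6-fold lower in the deposited table (-3.40).

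The 250 bases before the annotated start of 4 of these genes, and of 2 of the genes that rose most, are printed here to show the words whose shares are compared at the end of the results. The sequences were read from RefSeq assembly TAIR10.1 on the gene's strand. Capitals mark the words searched below: CCAATC and the GATTC words (GATTC after A or G and before C or T), tied to GLK binding in other work, the G-box CACGTG, the W-box words that WRKY factors bind (TTGAC before C or T), and the GCC-box GCCGCC of ethylene response factors, each on either strand.
AT3G55240, chr3:20475333-20475582, minus strand: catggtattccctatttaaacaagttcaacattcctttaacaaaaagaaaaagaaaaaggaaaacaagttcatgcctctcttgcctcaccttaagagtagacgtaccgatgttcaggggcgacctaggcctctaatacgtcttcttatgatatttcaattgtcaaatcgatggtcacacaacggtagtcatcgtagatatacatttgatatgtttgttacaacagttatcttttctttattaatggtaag
BBX16, chr1:27778734-27778983, plus strand: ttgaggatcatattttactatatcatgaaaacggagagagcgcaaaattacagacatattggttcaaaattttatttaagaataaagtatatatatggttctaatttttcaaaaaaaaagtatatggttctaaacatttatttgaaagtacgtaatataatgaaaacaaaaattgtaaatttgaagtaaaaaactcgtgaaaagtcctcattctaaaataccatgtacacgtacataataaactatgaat
PGL5, chr5:8338033-8338282, minus strand: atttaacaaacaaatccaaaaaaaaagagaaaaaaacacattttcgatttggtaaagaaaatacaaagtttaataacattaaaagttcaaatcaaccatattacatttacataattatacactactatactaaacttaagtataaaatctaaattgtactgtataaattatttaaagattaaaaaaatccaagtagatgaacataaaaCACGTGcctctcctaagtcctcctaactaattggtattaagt
AT4G13575, chr4:7893762-7894011, minus strand: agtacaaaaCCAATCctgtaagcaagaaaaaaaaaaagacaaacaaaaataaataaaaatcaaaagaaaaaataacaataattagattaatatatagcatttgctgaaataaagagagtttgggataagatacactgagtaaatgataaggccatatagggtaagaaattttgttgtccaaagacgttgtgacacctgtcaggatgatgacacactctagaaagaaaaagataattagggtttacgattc
AT1G26380, chr1:9128569-9128818, minus strand: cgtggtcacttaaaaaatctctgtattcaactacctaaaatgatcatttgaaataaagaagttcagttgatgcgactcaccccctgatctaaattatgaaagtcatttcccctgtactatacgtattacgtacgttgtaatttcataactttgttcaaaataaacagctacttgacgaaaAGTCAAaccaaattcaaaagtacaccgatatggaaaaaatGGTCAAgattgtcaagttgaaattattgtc
PDF1.2, chr5:17907639-17907888, minus strand: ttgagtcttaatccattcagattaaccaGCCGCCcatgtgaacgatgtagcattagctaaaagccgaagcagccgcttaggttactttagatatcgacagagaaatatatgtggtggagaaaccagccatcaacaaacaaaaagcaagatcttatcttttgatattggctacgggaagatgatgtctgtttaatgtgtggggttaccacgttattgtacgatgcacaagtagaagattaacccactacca
The upstream window of AT3G55240 and that of BBX16 held no such word, that of AT4G13575 held 1 CCAATC, that of PGL5 held 1 G-box, that of AT1G26380 held 2 W-box words and that of PDF1.2 held 1 GCC-box. The windows of AT1G13650, AT3G05945, CYP71A12 and AT1G26240, read in the same way and not printed, held none of the words, so 4 of these 10 genes had a match. Taken singly, the words stood in 2.00% (GCC-box) to 28.0% (W-box words) of tested promoters, and the share with any of them was not computed. A match is a description of the letters and does not show that a factor binds there.

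RPGE2-OX was compared with the same 3 wild-type samples, so both ratios of a gene share their denominator and are given side by side with no test of the difference. AT1G13650 had nearly equal deposited ratios in glk12 and RPGE2-OX, -6.78 and -6.79. PGL5 stood at -4.49 and -6.05 and BBX16 at -5.07 and -2.36 in the deposited table. AT3G55240 stood at -6.46 in glk12 and 4.79 in RPGE2-OX in the deposited table (q = 0.00176 in the latter). The files and RefSeq pair no locus with the name RPGE2, so a response of AT3G55240 and overexpression of this gene itself cannot be told apart in RPGE2-OX. The noncoding AT3G05945 was far below the wild type in glk12 alone among these values, with a deposited ratio of 0.15 in RPGE2-OX (q = 0.76).

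A stretch of chromosome 4 held 4 of the 10 largest falls. Between AT4G13495 (starting at 7842967 on TAIR10.1) and AT4G13577 (ending at 7898499) lie 19 listed loci over 55.5 kb, 16 of them tested, of which 4 fell and 1 rose. The deposited ratios of the genes that fell were -3.66 for the noncoding AT4G13495, -4.13 for UNE15, a late embryogenesis abundant protein, -3.56 for AT4G13572 and -4.85 for AT4G13575. Their values in RPGE2-OX in the deposited table were -8.38, -4.36, -6.54 and -11.93, of which those of AT4G13572 and AT4G13575 did not pass (q = 0.67 and 0.62). HTA4, a histone gene, and the noncoding AT4G06085 and AT4G06115 had deposited ratios of -3.50, -2.91 and -3.53 in glk12 that did not pass, and in RPGE2-OX they were listed at 0 with q = 0.00176. Nor did the noncoding AT4G06080 and AT4G06090 (-1.55 and -2.18, q = 0.21 and 0.65) or the protein-coding AT4G13500 (-0.40, q = 0.19) pass in glk12 in the deposited table. Of the rest between them, AMT1;1, SMAP1, AT4G13530, AT4G13540 and AT4G13550 had deposited ratios from -0.14 to 0.35, with q of 0.78 or more, and the noncoding AT4G13505, which overlaps the ammonium transporter gene AMT1;1 on the opposite strand, rose to 0.82 (q = 0.00191). The sources used here do not say how reads of overlapping loci were assigned. The stretch was singled out after its values were seen.

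**Figure D1:**
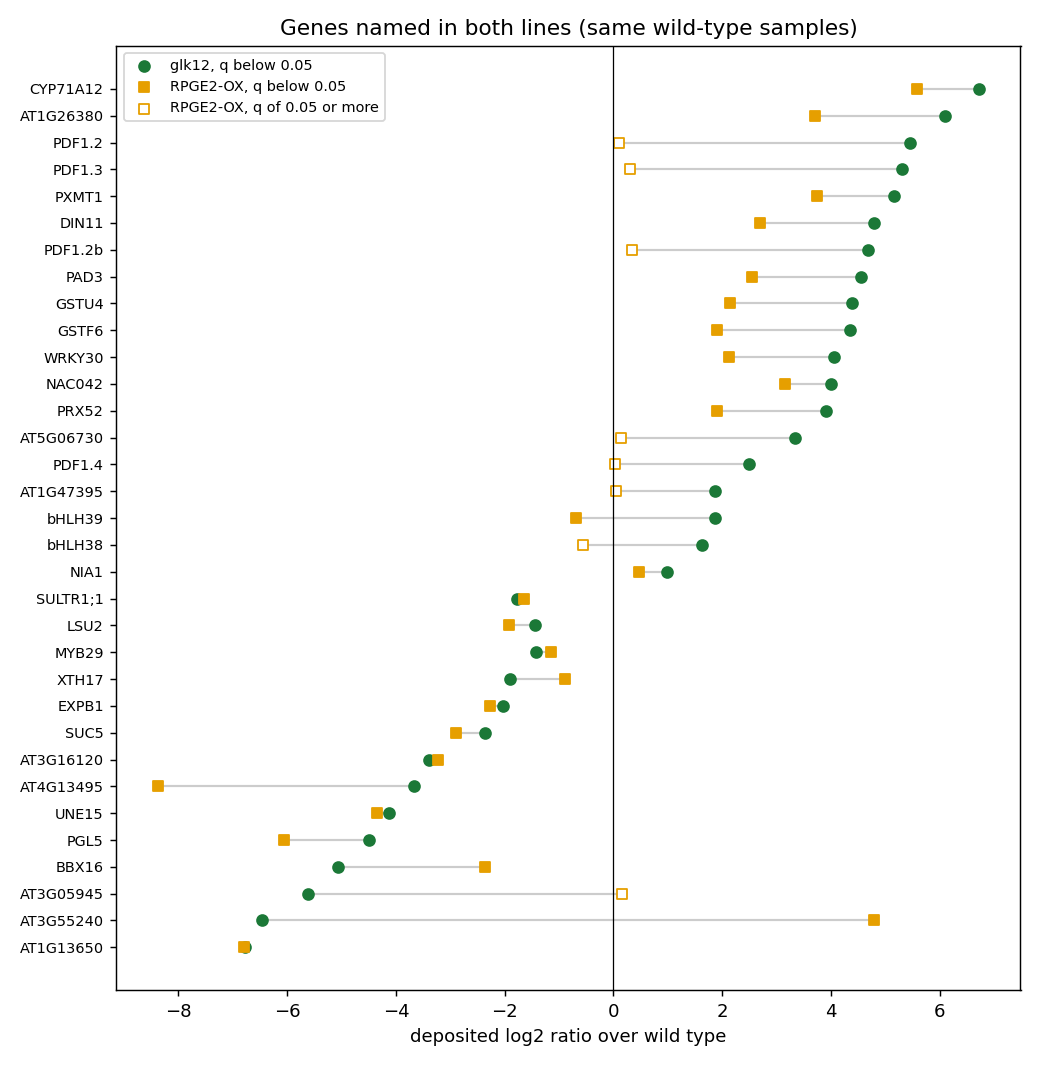
Deposited log2 ratios over the wild type of 33 genes, with 1 point per line and gene: circles are glk12, squares are RPGE2-OX, and open squares mark a q of 0.05 or more. Most pairs lie on the same side of 0, while AT3G55240, for which a response and overexpression itself cannot be told apart, lies at -6.46 and 4.79, and the defensin genes PDF1.2, PDF1.3 and PDF1.2b lie between 4.69 and 5.46 in glk12 and between 0.10 and 0.33 in RPGE2-OX.

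Camalexin is an antimicrobial compound made from tryptophan. The 10 largest finite rises outside photosynthesis held 3 genes of the camalexin and indole cyanogenic list, 3 defensin genes and 4 others. Of the others, AT1G26240, a proline-rich extensin-like wall protein, had the second largest ratio and was 97.1-fold higher in the deposited table (6.60, q = 0.041). PXMT1, annotated as a methyltransferase, was 35.9-fold higher (5.17, q = 0.00191), and the glutathione transferase gene GSTU11 was 23.8-fold higher in the deposited table (4.57, q = 0.048). The fourth was DIN11, given below with the genes induced by darkness. In RPGE2-OX, AT1G26240 stood at 4.93 (q = 0.036) and PXMT1 at 3.74 (q = 0.00327) in the deposited table, while GSTU11 had a q of 1 there and was untested. Of 17 tested genes of camalexin, indole cyanogenic and tryptophan synthesis, 13 rose and 0 fell, with a median deposited ratio of 1.43 against 0.02 for all tested genes. No member had an unadjusted p below 0.05 on the lower side. Called members stood at early and late steps. ASA1, an anthranilate synthase subunit, was 2.65-fold higher, the tryptophan synthase genes TSA1 and TSB1 were 2.63-fold and 2.18-fold higher, and TSB2 was 1.83-fold higher in the deposited table (each at q = 0.00191). CYP79B2, which turns tryptophan into indole-3-acetaldoxime, was 2.74-fold higher in the deposited table. Later steps had larger ratios. CYP71A12, which acts on the aldoxime, was 106-fold higher (6.73), and PAD3, the last enzyme of camalexin synthesis, was 23.5-fold higher in the deposited table (4.56). The glutathione transferase genes GSTU4, GSTF6 and GSTF7 were 20.8-fold, 20.3-fold and 16.2-fold higher there. AT1G26380, a berberine bridge enzyme-like protein, was 68.1-fold higher in the deposited table (6.09). CYP71A13, the close copy of CYP71A12, had the highest finite ratio of the list and did not pass (8.59, q = 0.62 in the deposited table). Reads of such near-identical copies may have been split between them, and these ratios are uncertain to that extent. The other 3 members that did not pass were CYP79B3, the paralogue of CYP79B2 (deposited ratio 0.29, q = 0.54), the gamma-glutamyl peptidase gene GGP1 (-0.26, q = 0.57) and MYB51, a factor of the indolic branch of glucosinolate synthesis (0.18, q = 0.76). WRKY33, the transcription factor that drives this pathway under attack, rose 1.52-fold (q = 0.021 in the deposited table).

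In RPGE2-OX the late steps had smaller deposited ratios and the early steps small ones, of which that of TSA1 passed (0.42, q = 0.039 in the deposited table). CYP71A12 stood at 5.58, AT1G26380 at 3.71, PAD3 at 2.54 and GSTU4 at 2.14 in the deposited table, all with q below 0.05. CYP79B2 stood at 0.24 (q = 0.39), TSB1 at 0.29 (q = 0.21), TSB2 at 0.11 (q = 0.88) and ASA1 at 0.36 (q = 0.14) in the deposited table, and these 4 did not pass. Whether the lines differ was not tested.

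Defensin genes encode small antifungal peptides. Of 8 tested genes of the PDF group 4 rose and 0 fell, with 5 members above 0 and 3 below 0 at an unadjusted p below 0.05. In the deposited table PDF1.2 was 43.9-fold, PDF1.3 39.4-fold, PDF1.2b 25.8-fold and PDF1.4 5.64-fold higher, each at q = 0.00191. PDF1.2c had a larger deposited ratio (5.58) that did not pass (q = 0.092). The first 3 genes and PDF1.2c are close copies, so their separate values are uncertain. PDF1.2 is the usual marker of combined jasmonate and ethylene signalling, and the part of these hormones in the defensin values was not tested. Their lists held 1 rise and 1 fall among 28 jasmonate genes (3.57% each) and 0 rises and 1 fall (4.17%) among 24 ethylene genes. Of all tested genes, 2.63% were called higher and 3.04% lower. At an unadjusted p below 0.05, 4 ethylene genes were higher and 3 lower. The jasmonate rise was CYP94B3, which breaks down the active hormone (2.78-fold, q = 0.00345), and the fall was the synthesis gene AOS (1.49-fold lower, q = 0.03 in the deposited table). The ethylene fall was the synthesis gene ACS8 (3.04-fold lower in the deposited table).

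Further defence lists rose in part. Of 22 tested genes of pattern-triggered immunity, the response to microbial molecules, 5 rose and 0 fell, led in the deposited table by PROPEP3, the precursor of an elicitor peptide (6.23-fold, q = 0.00191), CYP81F2, which modifies indolic glucosinolates (2.58-fold), the oxidase gene RBOHD (1.91-fold) and the transporter gene PEN3 (1.84-fold). Of 24 genes of salicylic and pipecolic acid defence 4 rose and 2 fell. AT4G10500, an oxygenase, was 6.96-fold higher, FMO1, which makes N-hydroxypipecolic acid, was 3.39-fold higher, and EDS16, which makes the precursor of salicylic acid, was 2.67-fold lower in the deposited table (q = 0.0049, 0.039 and 0.00191). Among 99 genes for intracellular immune receptors 2 rose (2.02%) and 1 fell (1.01%), against 2.63% and 3.04% of all tested genes.

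Large families of stress-responsive genes are given with their shares, against 2.63% of all tested genes called higher and 3.04% called lower. Of 54 tested WRKY factors 8 rose (14.8%) and 1 fell (1.85%), with WRKY30 16.6-fold and WRKY28 3.76-fold higher in the deposited table. Of 57 NAC factors 6 rose (10.5%) and 1 fell (1.75%). NAC042, a factor that acts on longevity and on camalexin genes, was 16.1-fold higher in the deposited table. Class III peroxidases, which build and modify cell walls with hydrogen peroxide, moved in both directions, 13 higher (21.3%) and 8 lower (13.1%) of 61. PRX52 was 15-fold and AT5G06730 was 10.2-fold higher in the deposited table, while AT5G06730 had a ratio of 0.13 in RPGE2-OX (q = 0.93). Glutathione transferases had 7 rises (15.6%) and 3 falls (6.67%) among 45 tested genes, and cytochrome P450 genes had 16 of each among 148 (10.8% each). ABC transporters had 5 rises (5.43%) and 0 falls among 92, led by ABCG40 at 7.7-fold higher in the deposited table. At an unadjusted p below 0.05, 2 of them were lower. Receptor-like kinases had 10 rises and 5 falls among 211, which is 4.74% and 2.37%.

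**Figure D2:**
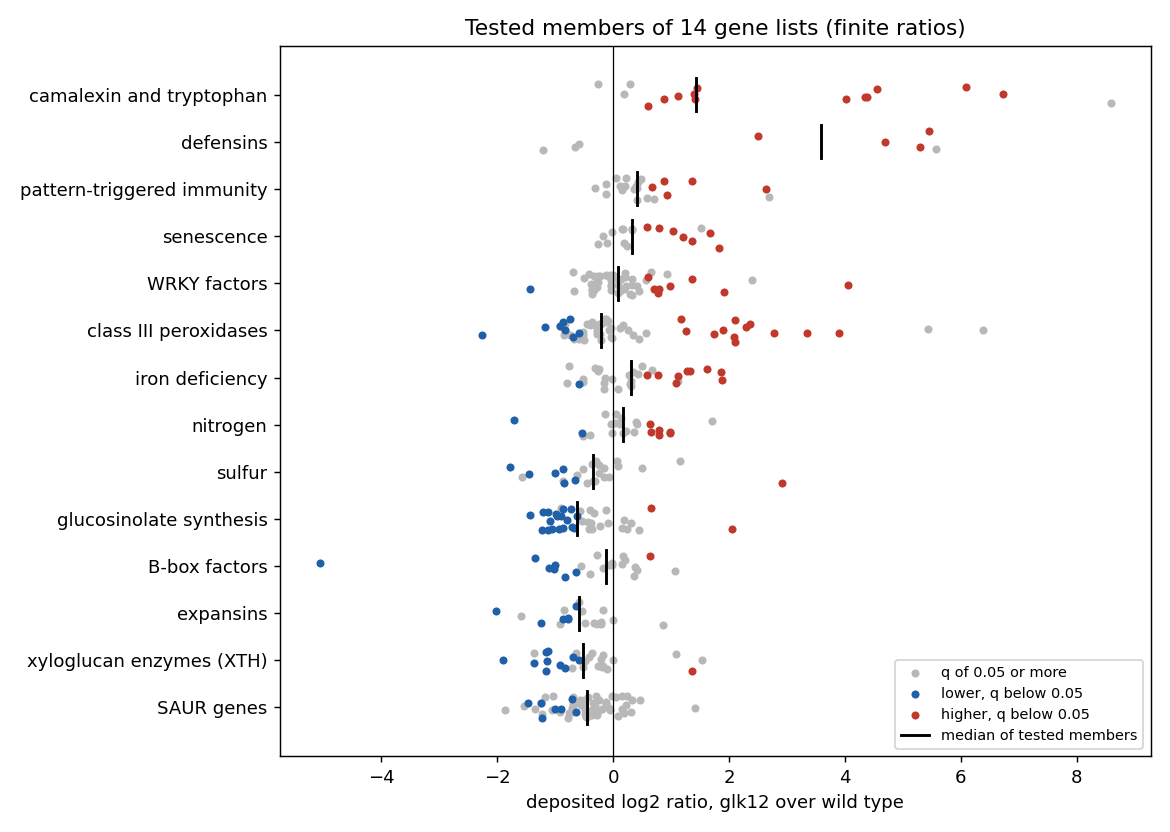
Deposited log2 ratio of glk12 over the wild type for each tested member with a finite ratio in 14 gene lists, with 1 point per gene, red for a called rise, blue for a called fall and grey for a q of 0.05 or more. Black ticks are list medians, from 3.59 for defensins and 1.43 for camalexin and tryptophan genes down to -0.63 for glucosinolate synthesis. The 14 lists were picked for display after their values were seen.

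Part of the senescence genes were higher. Of 19 tested genes of senescence and chlorophyll breakdown 7 rose, 0 fell and 12 did not pass, and 0 were lower at an unadjusted p below 0.05. The tested genes for chlorophyll breakdown itself were all among the 12 that did not pass. Their deposited ratios ran from -0.26 for PAO (AT3G44880, q = 0.53) to 1.52 for CLH2 (AT5G43860, q = 0.46). SEN1, a gene induced by darkness, was 3.55-fold higher, BCB, a blue copper protein, was 3.17-fold higher and SAG21 was 2.30-fold higher in the deposited table, each at q = 0.00191. Genes known to be induced by darkness also stood outside that list, and they were picked after their values were seen. DIN11, an oxygenase, was 27.7-fold higher, DIN2, a beta-glucosidase, was 7.53-fold higher, DIN10, a raffinose synthase-like protein, was 1.76-fold higher and ASN1, the asparagine synthetase induced by low sugar, was 1.67-fold higher in the deposited table. In the list of sucrose and trehalose metabolism, which holds some of these, 4 genes rose and 1 fell of 32. The fall was SUC5, a sucrose transporter gene (5.16-fold lower in the deposited table). Starch genes had 0 rises and 1 fall (3.33%) among 30, near the 2.63% of all tested genes called higher and the 3.04% called lower. At an unadjusted p below 0.05, 5 were above and 4 below. The fall was BAM6, a beta-amylase gene (3.44-fold lower in the deposited table).

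Nutrient lists held calls in both directions, and are set against 2.63% of all tested genes called higher and 3.04% called lower. Of 31 tested iron deficiency genes 9 rose and 1 fell, with a median deposited ratio of 0.30. They were led by AT1G47395 and AT1G47400, short hypothetical proteins, at 3.66-fold and 2.52-fold higher in the deposited table, beside the regulator genes bHLH39 and bHLH38 (3.63-fold and 3.08-fold). These 4 genes had no rise in RPGE2-OX, where their deposited ratios were 0.05, -0.13, -0.69 and -0.55, of which that of bHLH39 passed (q = 0.044). The uptake genes IRT1 and FRO2 had similar ratios in both lines, 1.09 and 1.12 in glk12 and 1.23 and 1.00 in RPGE2-OX in the deposited table. Nitrogen genes had 6 rises and 2 falls among 23. NIA1, a nitrate reductase gene, was 1.98-fold and GDH2, a glutamate dehydrogenase gene, 1.97-fold higher, while GLN1;4, a glutamine synthetase gene, was 3.26-fold lower in the deposited table (q = 0.00191 each). Of 25 sulfur genes 6 fell and 1 rose, with a median deposited ratio of -0.36. SULTR1;1, a high-affinity sulfate transporter gene, was 3.42-fold lower (q = 0.02), LSU2, a gene induced by low sulfur, was 2.73-fold lower and APR2, the main enzyme of sulfate reduction, was 2.02-fold lower in the deposited table. The rise in that list was DIN2. Phosphate starvation genes held 0 calls among 18, with 2 above and 1 below at an unadjusted p below 0.05.

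Glucosinolates are sulfur-rich defence compounds, and genes for the branch made from methionine held many of the falls. Of 37 tested glucosinolate genes 18 fell and 2 rose, with a median deposited ratio of -0.63. BCAT4 and MAM1, which lengthen the methionine chain, were 1.95-fold and 1.64-fold lower, and CYP79F1 and CYP83A1, which form the core structure, were 2.08-fold and 1.67-fold lower in the deposited table. IPMI1, another chain-lengthening enzyme, was 2.35-fold lower in the deposited table. AOP2, which RefSeq lists as a transcribed pseudogene, was 2.31-fold lower there. The regulator MYB29 fell 2.69-fold, while its partner MYB28 did not pass (deposited ratio -0.38, q = 0.25). The rises were ESM1, which steers glucosinolate breakdown, and MYB122, a factor of the indolic branch (4.13-fold higher in the deposited table). In RPGE2-OX, MYB29 stood at -1.15, BCAT4 at -0.84 and MYB122 at 1.49 in the deposited table.

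**Figure D3:**
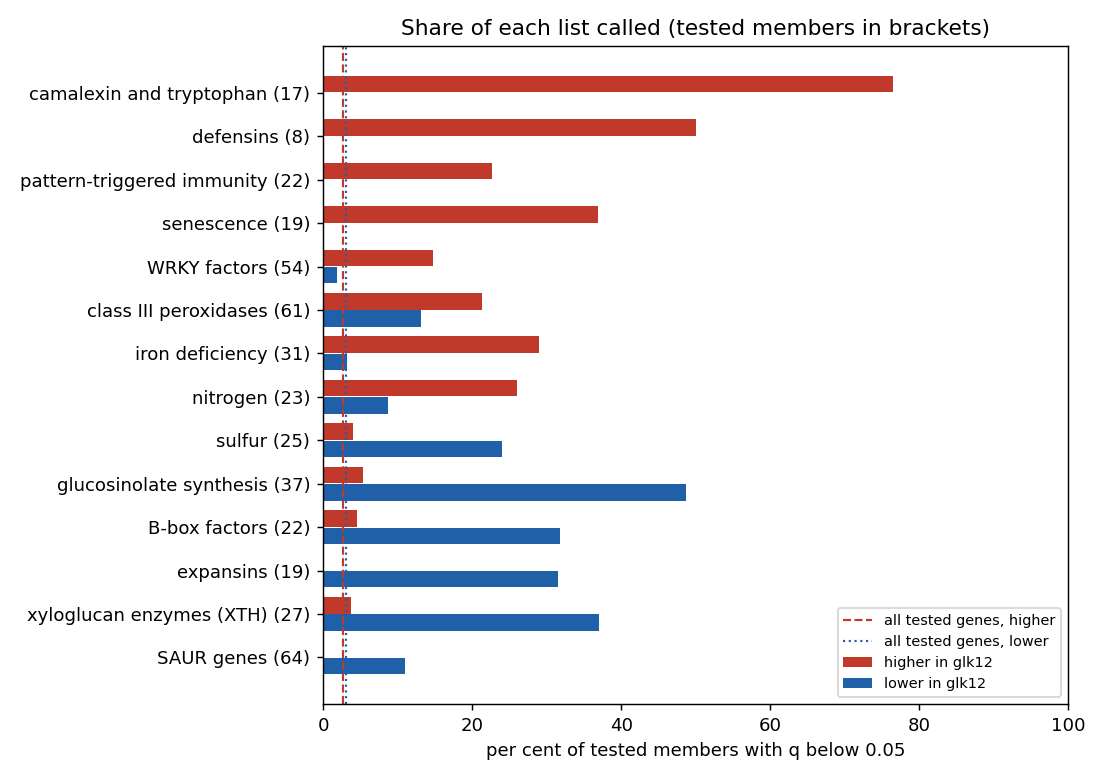
Per cent of tested members of the same 14 lists called higher (red) or lower (blue) in glk12, with the number tested in brackets and dashed and dotted lines at the shares of all tested genes, 2.63% and 3.04%. Camalexin and tryptophan genes reach 76.5% higher and glucosinolate genes 48.6% lower.

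Among genes for cell wall loosening a part fell. Of 27 tested xyloglucan endotransglucosylases, which cut and rejoin wall xyloglucan, 10 fell, 1 rose and 16 did not pass (median deposited ratio -0.52). Of 19 expansins, which loosen walls, 6 fell, 0 rose and 13 did not pass (median -0.58), with 1 higher at an unadjusted p below 0.05. XTH17 was 3.75-fold lower, XTH26 2.59-fold lower, EXPB1 4.08-fold lower and EXPA11 2.37-fold lower in the deposited table, each at q = 0.00191. The gene that rose was XTH24 (2.56-fold in the deposited table), which is also in the senescence list. SAUR genes, early auxin-induced genes of cell expansion, had 7 falls (10.9%) and 0 rises among 64, with 1 higher and 22 lower at an unadjusted p below 0.05 and a median deposited ratio of -0.46. SAUR29, SAUR28 and SAUR27, which lie next to each other, were 2.36-fold, 2.76-fold and 2.00-fold lower in the deposited table, and they are similar in sequence.

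Further hormone lists held 0 to 3 calls each, set against 2.63% of all tested genes called higher and 3.04% called lower. Of 35 cytokinin genes 3 fell (8.57%) and 0 rose, all of them response regulators that cytokinin induces: RR16 was 2.62-fold, RR5 2.23-fold and ARR9 1.64-fold lower in the deposited table (q = 0.012, 0.00191 and 0.00191). Aux/IAA repressor genes had 3 falls (13.0%) and 0 rises among 23, with IAA28 at 1.58-fold and AXR3 at 1.57-fold lower in the deposited table. For comparison at an unadjusted p below 0.05, 1 cytokinin gene and 0 Aux/IAA genes were higher. Gibberellin genes had 1 fall among 23 (4.35%), near the share of all tested genes, which was GASA6 (2.04-fold lower in the deposited table). Brassinosteroid genes had 0 calls among 16, with 1 above and 3 below at an unadjusted p below 0.05.

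Among B-box factors, a family of light-signalling zinc finger proteins, 7 of 22 tested genes fell and 1 rose. After BBX16 came BBX15 (2.54-fold lower), COL2 (2.16-fold) and BBX27 (2.04-fold) in the deposited table. BBX17, another member, had a deposited ratio of -0.83 in glk12 and 0.03 in RPGE2-OX (q = 0.97). The rise was COL9 (0.63, q = 0.011 in the deposited table). Other factor families had shares nearer to those of all tested genes, 2.63% higher and 3.04% lower. MYB factors had 2 rises (2.63%) and 4 falls (5.26%) among 76, and bHLH factors 4 (3.81%) and 5 (4.76%) among 105. GATA factors had 1 rise (5.56%) and 0 falls among 18, where 1 gene was lower at an unadjusted p below 0.05.

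Plastid lists outside the 5 photosynthesis lists held 7 rises (4.05%) and 13 falls (7.51%) among 173 genes. Of all tested genes 2.63% were called higher and 3.04% lower. Some of these lists also serve photosynthesis. Of 17 tested NDH complex genes 2 fell and 0 rose, with 0 above 0 and a median deposited ratio of -0.43. In carotenoid synthesis 2 of 13 genes fell and 1 rose: PSY, the entry enzyme, was 2.19-fold lower and BETA-OHASE 2 was 3.49-fold lower, while BETA-OHASE 1, its paralogue, was 1.51-fold higher in the deposited table (q = 0.025). Of 15 genes of state transitions, cyclic electron flow and photoprotection 5 fell and 1 rose, with the thylakoid-curving proteins among the falls (PSI-P 2.48-fold lower in the deposited table). ELIP1 and ELIP2, antenna-like proteins made under light stress, rose 2.23-fold and 2.38-fold in the deposited table. SIGA, a promoter-recognition subunit for plastid transcription, fell 2.76-fold, while SCA3, a phage-type plastid polymerase, rose 1.51-fold (q = 0.026 in the deposited table). DGD1, which makes a galactolipid of thylakoids, fell 1.83-fold in the deposited table. Chloroplast division genes held 0 calls among 12, with 2 above and 1 below at an unadjusted p below 0.05, and tocopherol and quinone genes 0 among 10, with 1 above and 0 below. Pentatricopeptide repeat proteins, which process organelle RNA, had 0 rises and 1 fall (0.446%) among 224, below the shares of all tested genes. At an unadjusted p below 0.05, 8 of them were higher and 3 lower. Among 129 organelle-encoded genes 2 rose and 1 fell.

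A set of genes was listed at 0 in a single genotype, which gives an infinite ratio. Such ratios were upward for 1286 genes (only the wild type at 0) and downward for 1258 (only glk12 at 0). Only 15 and 6 of these passed, and no fold is given for them. A ratio of exactly 0 was listed for 9570 other genes, and whether these were at 0 in both genotypes is not known here. Genes listed at 0 in the wild type that passed included CYP82C2, a P450 of the indole cyanogenic pathway, its neighbour CYP82C3, the peroxidase gene AT1G14550, the beta-glucosidase gene BGLU27 and the carbonic anhydrase gene ACA7, each at q = 0.00191 in the deposited table. Of the 15, 12 were also listed with an infinite upward ratio in RPGE2-OX, and 4 passed there. ACA7 and the adjacent loci AT3G44570, annotated as a retrotransposon protein, and AT3G44580 were the other 3, with a deposited ratio of 0 in RPGE2-OX. Those listed at 0 in glk12 that passed were SCRL28, AT1G35183, AT5G03395, AT1G06307, AT1G68905 and the small nucleolar RNA AT2G08580. The levels in the other genotype are not known here.

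Noncoding classes differed in their share of calls. Small nucleolar RNAs had 0 rises and 4 falls among 163 (2.45%), near the 3.04% of falls among all tested genes. Loci annotated only as noncoding RNA had 1 rise and 3 falls among 118 (0.847% and 2.54%). Long noncoding RNAs had 6 rises and 10 falls among 1130 tested loci (0.531% and 0.885%). Small nuclear RNAs, the RNA cores of the spliceosome, had 0 rises and 6 falls among 37 (16.2%), namely U1.2, U1.4, U1.5, U1.8, U5.6 and U12, which were 1.61-fold to 2.30-fold lower in the deposited table. Of these 6, U12 had a called rise in RPGE2-OX (0.72) and the others had deposited ratios from 0.07 to 0.25 there that did not pass. The 4 U1 genes are near-identical copies, so they are not separate observations. These 6 genes were chosen after their values were seen.

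A minority of called genes had a neighbour called in the same direction, a larger share than among all tested genes. Of the genes that rose and could be placed on TAIR10.1, 14.5% had a called rise at the next tested locus on either side, against 5.16% of all tested genes. For falls the shares were 14.7% and 5.94%. There were 12 runs of at least 3 adjacent called loci, 7 of rises and 5 of falls. A run of falls was the thalianol cluster, a set of adjacent genes for a root triterpene: CYP705A5, CYP708A2 and THAS1 were 2.95-fold, 2.41-fold and 3.11-fold lower in the deposited table. Runs of rises included CYP82C4, CYP82C3 and CYP82C2, and the berberine bridge enzyme-like genes AT1G30700, AT1G30720 and AT1G30730 with deposited ratios of 0.64, 1.00 and 1.31. Another joined AT1G47395 and AT1G47400 to the noncoding AT1G07367 (deposited ratio 2.14, q = 0.00345). Several of these runs are tandem copies, for which shared reads were not tested. Within 1000 kb of GLK1, 8 of 406 tested genes rose and 13 fell, and within 1000 kb of GLK2, 11 of 388 rose and 14 fell, shares of 1.97% and 3.20%, and of 2.84% and 3.61%.

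The shares of promoters that held each word are given as a description. Of 55 promoters of photosynthesis genes that fell, 23.6% held CCAATC, against 11.7% of 606 other genes that fell, 9.60% of 573 that rose and 10.7% of 21701 tested. The GATTC words gave 21.8%, 12.0%, 7.33% and 12.2% in the same order. The G-box gave 18.2% for photosynthesis genes that fell, 9.57% for other genes that fell, 7.33% for genes that rose and 6.91% for tested genes. The W-box words had the opposite order. They stood in 38.9% of promoters of genes that rose and in 47.2% of the 269 that rose at least 2-fold, against 22.9% of genes that fell outside photosynthesis and 28.0% of tested genes. The share was 16.4% for photosynthesis genes that fell. The GCC-box stood in 4.01% of promoters of genes that rose, 5.45% of those of photosynthesis genes that fell (3 of 55), 0.495% of those of other genes that fell and 2.00% of tested ones. The W-box and GCC-box words were added after the rises were seen. No share was tested, and base composition, which sets how often short words occur, was not compared.

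**Figure D4:**
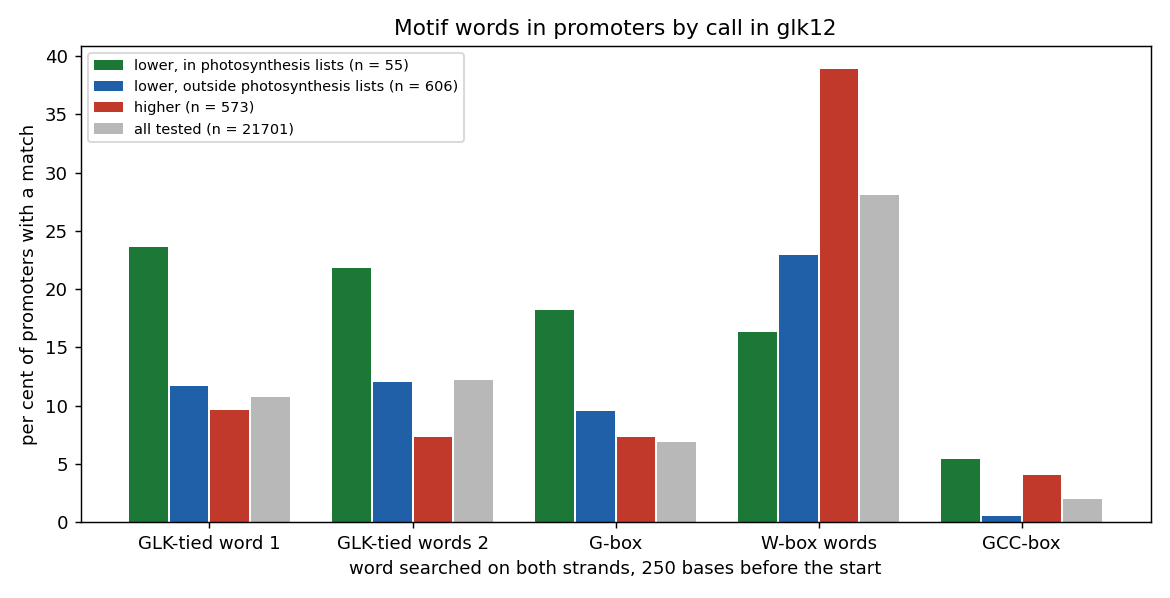
Per cent of promoters (250 bases before the start, both strands) that hold each word or set of words, by call in glk12. Photosynthesis genes that fell have the highest bars for the words tied to GLK and for the G-box, and genes that rose have the highest bar for W-box words, 38.9% against 28.0% of all tested genes. For the GCC-box the highest bar is that of photosynthesis genes that fell, 5.45%, which is 3 of 55 promoters.

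Markers of organs and cell types are given beside these values, against 2.63% of all tested genes called higher and 3.04% called lower. Of 18 tested root markers 3 fell and 0 rose, namely SHV2, EXPA18 and RCI3, with deposited ratios from -0.97 to 0.89 and a median of -0.48, and 9 were lower and 0 higher at an unadjusted p below 0.05. Several falls named above, such as XTH26, EXPA18 and the thalianol genes, are known from roots, and the part that root content had in them was not tested. Of 12 guard cell and stomatal markers KAT1 fell (1.76-fold lower in the deposited table). The 16 epidermis and cuticle markers and the 12 vascular markers held 0 calls, with medians of -0.13 and -0.30 and with 1 and 3 genes lower at an unadjusted p below 0.05. Of the 2 tested seed storage genes neither passed, and both were higher at an unadjusted p below 0.05.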

How the data were processed

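Total RNA of whole seedlings was made into stranded libraries and read on an Illumina sequencer (labels' protocols). The submitters' processing notes name CASAVA 1.8.2, TopHat, Cufflinks, Cuffdiff and TAIR10 without saying what each did. The authors deposited 1 table with a log2 ratio per comparison and a q-value, a p-value adjusted for multiple testing, per the file headers. The sources used here do not say how replicates were combined or how strand was used in counting. The table held no per-sample values, so p-values rest on the authors' replicates and may measure technical spread.

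A q of 1 was read as untested. Spreadsheet error text was decoded as an infinite ratio, upward where the wild type was listed at 0: all 1286 such genes had a ratio of 0 or an upward infinite ratio in RPGE2-OX. A call was a deposited q below 0.05, read with the sign of the ratio, and no test of differences was added. Unadjusted p-values were recovered by undoing the Benjamini-Hochberg adjustment over 21843 genes. The planned fit on replicate values could not be made, since the file held ratios. Medians use finite ratios of tested members.

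Of the listed genes, 37043 matched a RefSeq TAIR10.1 locus by identifier, which gave names, coordinates and promoters, since the table holds no coordinates. The 71 gene lists, 250 upstream bases per promoter and the words searched were used with Python 3.11.15 and pandas 2.3.3, after the functions had been tested on simulated data. Members, lists and comparisons were chosen with earlier results of these data known. After values were seen, wrong symbol matches were replaced, and the SAUR, bHLH, aquaporin and defensin lists were redefined by product text or a stricter symbol pattern. Named genes were GLK1, GLK2, the 10 largest finite rises and falls outside photosynthesis, and a selection from the called genes listed at 0 (up to 10 per direction) and from up to 4 called members per list with the largest ratios. Other named genes, such as early camalexin, glucosinolate, thalianol and small nuclear RNA genes, were chosen after their values were seen.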

Additional observations from a re-analysis of the deposited data

How the results depend on the processing

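A q below 0.01 left 345 genes higher and 395 lower, and 3 genes listed at 0 in glk12. A change of at least 2-fold left 270 higher and 293 lower (1.24% and 1.34% of tested genes). An unadjusted p below 0.05 gave 1644 higher and 1774 lower. The share of genes that fell with CCAATC in the promoter moved from 12.7% to 16.8% when 50 bases after the start were included. This lengthens the window for all genes. The share moved from 10.7% to 13.0% for tested genes and from 9.60% to 11.7% for genes that rose. Leaving out infinite ratios or noncoding loci, and a q below 0.1, kept both counts within 1.5 times. Centring on the median of tested genes (0.02) or of the reference genes (0.10) could not move the counts. Calls rest on the deposited q, and the smallest called change was 0.51 in log2, so no called gene could change sign. With the next locus among all listed genes, neighbour shares were 10.5% for rises and 10.7% for falls. At a q below 0.1, 775 genes were higher and 890 lower.

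No paired analysis was possible because the table held 1 ratio per gene and comparison and no value per replicate. For the same reason no replicate was left out in turn. Large ratios did not always pass: 256 genes with a finite ratio of at least 4-fold had a q of 0.05 or more, and the lowest q, 0.00191, was shared by 571 genes, so it gives no order among them.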
